A study of Mus musculus with 18 samples.

Results

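The data described here are 6 of the 18 RNA-seq libraries of a study of the interleukin-3 (IL-3) receptor: 3 libraries from the P248L line after 2 days in IL-3 and 3 from the same line after 5 days. They were chosen by receptor and time, and the question is what changes late within the IL-3 culture of cells carrying the P248L form of IL3Ra, the alpha subunit of the receptor. The cells are immortalized liver cells of BALB/c mouse fetuses at stage E14.5, and the mice lacked both βc, the beta subunit that the receptors of IL-3, GM-CSF and IL-5 share, and βIL-3, a beta subunit of the mouse IL-3 receptor alone. The P248L line was transduced with IL3Ra P248L and βc, and a second line with wild-type IL3Ra and βc; every group therefore carries the deletion of both endogenous beta subunits. Both lines were grown in medium with doxycycline and stem cell factor (SCF, the ligand of KIT) at 100 ng/ml, washed, and plated with IL-3 at 100 ng/ml for 2 or 5 days in a medium for which neither SCF nor doxycycline is listed. The 6 groups of 3 libraries are each line untreated, at day 2 and at day 5. Lines were used at passages 10 to 12, RNA came from 1000000 cells per condition, and each receptor is represented by 1 line. The labels do not say whether the 3 replicates of a group were separate cultures, so p-values measure the spread between these libraries, which may be technical.

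IL-3 is a T-cell cytokine that keeps myeloid progenitors alive, drives their division and lets them mature into neutrophils, macrophages, basophils and mast cells. It binds the alpha subunit, which pairs with a beta subunit; the beta subunit is bound to the kinase JAK2, and signalling runs through STAT5, the RAS-MAPK cascade and PI3K. Neutrophil maturation follows an order of granule genes: primary granule proteins such as myeloperoxidase are made in promyelocytes, while lactoferrin and other secondary granule proteins, and then gelatinase and the S100A8 and S100A9 proteins of the cytoplasm, come later.

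The 6 libraries held 13898296 to 23320571 reads assigned to genes, and 13844612 to 27181962 over all 18. P248L day 2 replicate 3 stood apart: 3.44% of its reads were on Rn45s, the ribosomal RNA precursor, against 0.0995% to 0.220% in the other 5. Of all its reads counted, in genes or not, 38.1% were not assigned to 1 gene, against 32.9% to 34.6% in those 5. Values with and without this library are given below for the count of changed genes, Il3ra and Rn45s. Other results that its removal changed are not all given. Without it, 11 of 36 gene list medians and 4 of 72 list counts moved by the limits of the closing section. So did 7 of 72 list counts of differences between the lines. Afp and Kdr no longer passed. Replicates of both days differed by more than sampling noise, with a chi-square of 15.1 to 185 per degree of freedom between pairs. On the first principal component of all 18 libraries the day 2 libraries lay between -61.4 and -57.4 and the day 5 libraries between 56.5 and 61.9, with the untreated P248L libraries at -82.3 to -76.9. Values below are CPM, reads for each 1000000 reads in genes after TMM scaling of library sizes, and folds are on the log2 scale with their standard error. In bulk RNA, fewer cells of a type and less RNA per cell cannot be told apart.

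Between day 2 and day 5 most of the measured transcriptome of the P248L line changed. The late rise took in genes of mature neutrophils, of macrophages and their lysosomes, of chemoattractant sensing, of glycolysis and of cholesterol synthesis, and the late fall took in genes of ribosome assembly, DNA replication, mitosis and the progenitor state. Of 11942 genes tested, 8382 (70.2%) passed an adjusted p of 0.05 in edgeR's quasi-likelihood test, 4432 of them higher at day 5 (37.1% of those tested) and 3950 lower (33.1%). More rises than falls were large: 1040 genes rose at least 8-fold and 113 fell as much. The median log2 change over all genes tested was 0.06. Among genes that passed, 158 had 0 reads at day 2 and 7 had 0 reads at day 5. Fitted folds of such genes depend on the prior count, and their share of the 8-fold changes was not counted. Without day 2 replicate 3, 8328 genes passed. The lowest library of one day lay above the highest of the other for 8436 genes (70.6%). Many genes named below were chosen by adjusted p, by fold or after their values were seen. Their lack of overlap is therefore no separate support. With a smooth trend on transcript length and GC content removed from each library, the median of all genes was -0.21, 9153 genes passed, and 41.6% of them were higher in place of 52.9%. So many genes passed that a list's count is read below against 37.1% and 33.1%.

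**Figure D1:**
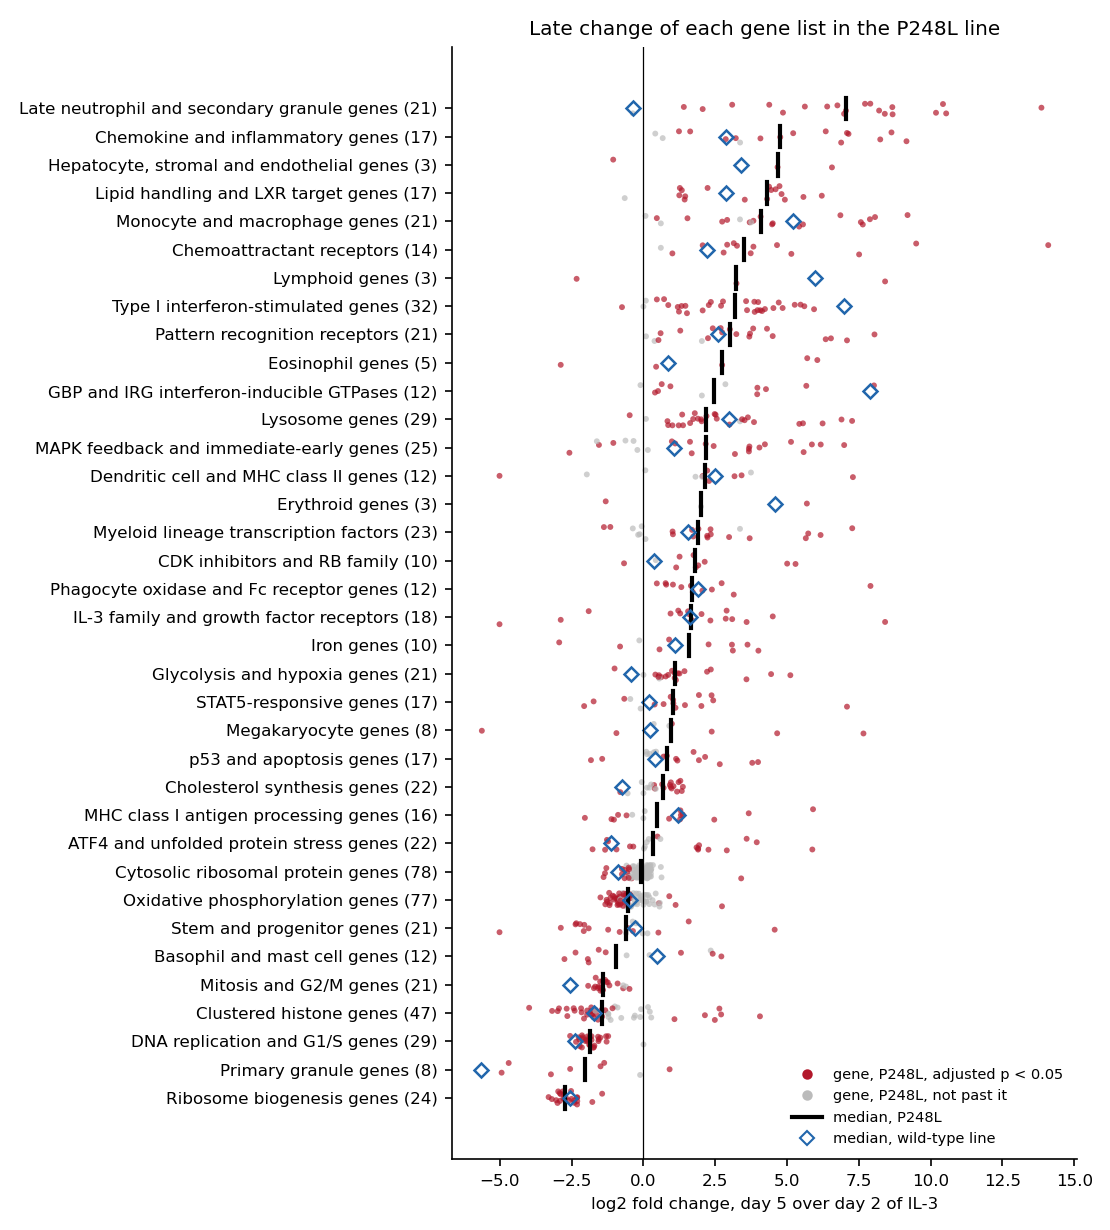
Log2 fold change from day 2 to day 5 (x axis) of the tested members of 36 gene lists (rows, number tested in brackets) in the P248L line; points past an adjusted p of 0.05 are red and the others grey, black bars are list medians, and open diamonds are the medians of the wild-type line. Late neutrophil genes stand highest with a median of 7.05 and ribosome biogenesis genes lowest with -2.72.

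Fitted folds of genes without reads on 1 or both days depend on the prior count, so list medians were also taken another way. Such a gene was set at its bound (3 reads over the group), or left out where neither day had more than 3 reads. Left out was the 1 such gene of the chemokine, pattern recognition, lysosome, myeloid transcription factor and oxidative phosphorylation lists. In the monocyte and macrophage list 1 of 3 was left out, and in the GBP and IRG list 2 of 3. The median was then 3.95 for monocyte and macrophage genes, 4.99 for chemokine and inflammatory genes, 3.12 for pattern recognition receptors, 2.45 for the GBP and IRG genes, 2.11 for lysosome genes, 1.82 for myeloid transcription factors, -0.56 for oxidative phosphorylation genes and 1.51 for hepatocyte, stromal and endothelial genes. Only 3 genes of that last list could be tested, and its median of 4.67 is not used below.

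The genes of late neutrophil maturation had the highest median of the 36 lists. Of 21 tested, 20 rose and 0 fell, with a median log2 change of 7.05, and their summed level was 260.3 to 365 CPM at day 2 and 29370.3 to 41470.5 CPM at day 5. Ltf encodes lactoferrin, the iron-binding protein of secondary granules, and Ngp a granule protein of the cathelicidin-like family. Ltf stood at 0.372, 0.308 and 0.294 CPM at day 2 and 613, 499 and 399.6 CPM at day 5 (log2 10.54 ± 0.35). Ngp stood at 2.03, 1.29 and 0.221 CPM at day 2 and 1858, 1503 and 1159 CPM at day 5 (log2 10.19 ± 0.46). S100a8 and S100a9 encode the subunits of calprotectin, an abundant cytosolic protein of neutrophils. S100a8 stood at 44.8, 65.1 and 32.6 CPM at day 2 and 10210.5, 16337 and 15580.4 CPM at day 5 (log2 8.21 ± 0.42). S100a9 stood at 48.9, 67.4 and 34.6 CPM at day 2 and 13322, 20122 and 17706 CPM at day 5 (log2 8.40 ± 0.42). In each of these 4 genes the lowest day 5 library was far above the highest day 2 library, and the untreated means lay below those of day 2, with S100a8 at 0.788, 2.03 and 0.769 CPM. In RefSeq coordinates of GRCm38.p6, S100a8 (chr3:90669071-90670034) and S100a9 (chr3:90692630-90695721) are neighbours, and Ngp (chr9:110419808-110423012) and Ltf (chr9:111019292-111042766) lie on another chromosome.

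Gelatinase and the other late genes moved with them. Mmp9, gelatinase B, stood at 0.0413, 0.123 and 0.0735 CPM at day 2 and 128, 87.3 and 118 CPM at day 5 (log2 10.43 ± 0.39). Padi4, the enzyme that citrullinates histones in neutrophils, stood at 0.538, 0.246 and 0.368 CPM at day 2 and 167, 166 and 165 CPM at day 5 (log2 8.67 ± 0.30). Retnlg, which encodes a resistin-like protein of neutrophils, had 0 reads at day 2 and 87.9, 90.3 and 105 CPM at day 5, at least 1690.4-fold higher against a floor of 3 reads over the group. The granule genes Lcn2 (mean 33.0 to 691 CPM), Mmp8 (5.28 to 1276), Olfm4 (0.241 to 55.3) and Camp (0.216 to 22.9) also rose. The largest adjusted p in edgeR among the 11 genes of these paragraphs was 8.38e-10. The exception was Cebpe, the transcription factor required for secondary granules, which stood at 94.7, 67.1 and 47.2 CPM at day 2 and 55.6, 56.8 and 49.7 CPM at day 5 and did not pass (log2 -0.37 ± 0.23). The stefin genes Stfa2, Stfa2l1 and Stfa3, cysteine protease inhibitors of myeloid cells, went from under 1 CPM to means of 998, 1345 and 1503 CPM; they are near-identical copies on chromosome 16, so how the reads fall among them is uncertain.

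The wild-type line did not show this rise between the same days. Its S100a8 stood at 4250.1, 6098 and 5516 CPM at day 2 and 3334, 3844 and 5944 CPM at day 5, and its Ngp at 2237, 2156 and 1412 CPM at day 2 and 795, 1294 and 1199 CPM at day 5, so both were already high at day 2. Of the 21 late neutrophil genes in the wild-type line, 8 rose and 9 fell between day 2 and day 5 (against 36% and 34.7% of all tested genes), with a median of -0.38. The difference of the late changes between the lines was positive and passed its own test for 20 of the 21, against 16.3% of all genes; for Ltf it was 9.64 ± 0.40 and for Ngp 11.01 ± 0.53 on the log2 scale.

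**Figure D2:**
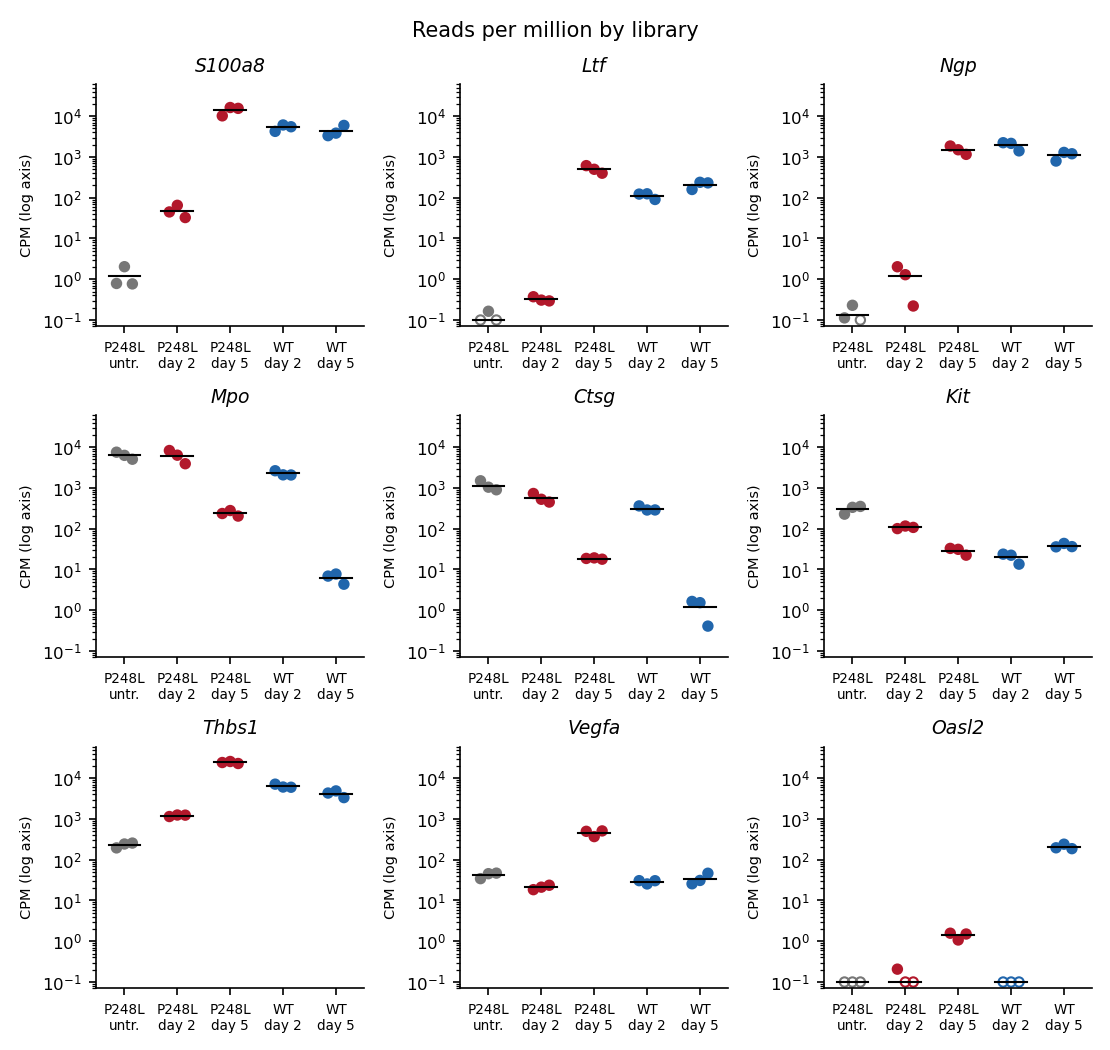
CPM (log axis) of 9 genes in each library of the P248L line (untreated, grey; day 2 and day 5, red) and of the wild-type line (day 2 and day 5, blue); bars are means of 3 libraries, and open points are values under 0.1 CPM drawn at 0.1. S100a8, Ltf, Ngp, Thbs1 and Vegfa are higher in every P248L day 5 library than in every day 2 library of that line, and Mpo, Ctsg and Kit are lower.

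Primary granule genes moved the other way. Of 8 tested, 6 fell and 1 rose, with a median of -2.02. Mpo, myeloperoxidase, stood at 8295, 6374 and 3933 CPM at day 2 and 236, 279 and 204 CPM at day 5 (log2 -4.69 ± 0.28). Ctsg, the serine protease cathepsin G, stood at 732, 528 and 451 CPM at day 2 and 18.7, 19.3 and 17.9 CPM at day 5 (log2 -4.94 ± 0.28). Prtn3, proteinase 3, stood at 611, 534 and 235 CPM at day 2 and 66.9, 81.5 and 87.0 CPM at day 5 (log2 -2.55 ± 0.28). All 3 day 5 libraries were below all 3 day 2 libraries in each gene, and Mpo of the untreated cells, at 7549, 6314 and 5074 CPM, overlapped day 2. Ms4a3, a membrane protein of granulocyte progenitors, fell from 948 ± 98.7 to 102 ± 17.2 CPM (mean ± SD, n = 3). Ctsc, the protease that activates the granule serine proteases, rose from 326 ± 63.0 to 612 ± 73.8 CPM. The fall was smaller than in the wild-type line, whose Mpo went from 2277 to 6.32 CPM: the difference was 3.79 ± 0.36 on the log2 scale for Mpo, and it was positive and passed for 6 of the 8 genes.

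Progenitor genes fell for the most part. Of 21 tested, 12 fell and 3 rose, with a median of -0.60. Myb, a transcription factor that keeps progenitors dividing, stood at 446, 486 and 562 CPM at day 2 and 65.0, 85.3 and 53.2 CPM at day 5 (log2 -2.88 ± 0.18). Cd34, a surface marker of progenitors, stood at 505, 588 and 594 CPM at day 2 and 124, 144 and 132 CPM at day 5 (log2 -2.08 ± 0.13). The transcription factors Gata2 (45.7 to 8.87 CPM) and Tal1 (47.5 to 9.41) fell as well. Prom1, which encodes the membrane protein CD133, was among the 3 that rose, with 4.26, 5.11 and 3.82 CPM at day 2 and 96.1, 114 and 104 CPM at day 5. Meis1, a partner of Hox proteins, fell from 8.76 to 6.03 CPM, and Hoxa9, at 1.64 and 1.76 CPM, did not pass. Hoxb8 had 0 reads in these 6 libraries.

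Among the receptors for growth factors and cytokines, 15 of 18 rose and 3 fell, with a median of 1.67. Csf2rb and Csf2rb2 are the loci of βc and βIL-3, which the mice lacked; reads there do not tell remnants of the deleted genes from an introduced copy, and the 2 genes resemble each other enough that reads may be split between them. Csf2rb stood at 92.1, 74.0 and 62.7 CPM at day 2 and 270.3, 217 and 227 CPM at day 5 (log2 1.64 ± 0.16). Csf2ra, the alpha subunit of the GM-CSF receptor, stood at 18.5, 13.5 and 11.9 CPM at day 2 and 193, 156 and 183 CPM at day 5 (log2 3.59 ± 0.18). Csf1r, the receptor of the macrophage growth factor M-CSF, stood at 9.86 ± 1.18 CPM at day 2 and 223 ± 30.0 CPM at day 5 (mean ± SD, n = 3; log2 4.50 ± 0.17). All day 5 libraries were above all day 2 libraries in these 3 genes. The late rise of Csf2ra was larger than in the wild-type line by 1.83 ± 0.23 (log2), and that of Csf2rb by 0.95 ± 0.21.

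The Il3ra locus gave few reads, with 2.11, 1.48 and 0.441 CPM at day 2 and 2.64, 2.22 and 3.33 CPM at day 5. Since neither the construct nor the species of the introduced IL3Ra is known from the labels, these reads are assigned to neither the endogenous nor the introduced copy and do not measure the P248L receptor. Il3ra passed narrowly (log2 0.94 ± 0.40, adjusted p 0.0436 in edgeR) and did not pass without P248L day 2 replicate 3 (log2 0.58, adjusted p 0.168 in edgeR), nor without day 2 replicate 2 or day 5 replicate 1 or 3, with adjusted p of 0.0969, 0.0742 and 0.138 in edgeR. Kit, the receptor of SCF, stood at 101, 116 and 108 CPM at day 2 and 32.9, 31.2 and 22.5 CPM at day 5 in the P248L line and fell (log2 -1.91 ± 0.20). In the wild-type line Kit stood at 23.8, 22.4 and 13.5 CPM at day 2 and 35.9, 43.6 and 36.4 CPM at day 5 and rose (log2 0.96 ± 0.20); the difference was -2.86 ± 0.29 (adjusted p 7.53e-07 in edgeR). Flt3, the receptor of another progenitor growth factor, stood at 3.72, 4.31 and 3.97 CPM at day 2 and 0.232, 0 and 0.0628 CPM at day 5, and Il5ra fell from 0.917 to 0.118 CPM. Il7r, the alpha chain of the interleukin-7 receptor, rose from 0.204 ± 0.0181 to 71.6 ± 1.79 CPM. The G-CSF receptor Csf3r rose from 8.34 ± 1.27 to 71.3 ± 19.3 CPM and the receptor subunits for interferons, Ifnar1, Ifnar2, Ifngr1 and Ifngr2, by 1.21 to 2.33 on the log2 scale.

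Genes downstream of STAT5 rose in 12 of 17 cases and fell in 3, with a median of 1.03. Cish, a feedback inhibitor of cytokine receptors, stood at 153, 106 and 101 CPM at day 2 and 259, 241 and 237 CPM at day 5 (log2 1.03 ± 0.18). Bcl6, a transcriptional repressor, stood at 0.289, 0.369 and 0 CPM at day 2 and 38.3, 29.4 and 31.9 CPM at day 5 (log2 7.09 ± 0.39). Myc, the growth-promoting transcription factor, stood at 544, 364 and 495 CPM at day 2 and 123, 121 and 91.0 CPM at day 5 (log2 -2.06 ± 0.20). All Cish and Bcl6 libraries were higher at day 5 and all Myc libraries lower. Mcl1, a survival factor of myeloid cells, rose from 281 ± 48.5 to 1073 ± 98.4 CPM, and Osm, the cytokine oncostatin M, from 24.7 ± 5.53 to 128 ± 39.1 CPM.

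The immediate-early and feedback genes of the MAPK cascade rose in 17 of 25 cases and fell in 3, with a median of 2.17. Dusp6, the phosphatase that switches off ERK, stood at 12.3, 12.6 and 18.6 CPM at day 2 and 285, 225 and 301 CPM at day 5 (log2 4.23 ± 0.19). Fos, a subunit of the AP-1 transcription factor, stood at 3.80, 3.82 and 4.56 CPM at day 2 and 300.2, 167 and 239 CPM at day 5 (log2 5.87 ± 0.29). Egr1, a zinc finger factor induced by ERK, rose from 5.96 ± 2.13 to 211 ± 54.8 CPM. In the wild-type line the same interval gave a Dusp6 change of 1.08 ± 0.16 (log2), and the difference between the lines was 3.15 ± 0.24. For the whole list the difference was positive and passed for 12 of 25 genes and negative for 2. Spry1, another feedback inhibitor of the cascade, fell from 3.49 to 0.548 CPM.

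Transcription factors of the myeloid lineages rose in 15 of 23 cases and fell in 2, with a median of 1.91. Irf4, an interferon regulatory factor of dendritic cells and macrophages, stood at 0.207, 0.185 and 0.0735 CPM at day 2 and 24.1, 29.8 and 25.6 CPM at day 5 (log2 7.27 ± 0.37). Id2, an inhibitor of basic helix-loop-helix factors, stood at 3.47, 3.69 and 5.07 CPM at day 2 and 314, 247 and 309 CPM at day 5 (log2 6.17 ± 0.24). Klf2 rose from 0.872 ± 0.179 to 46.7 ± 8.88 CPM and Cebpb, which drives granulocyte production under stress, from 65.9 ± 11.6 to 219 ± 22.8 CPM. The 2 that fell were Cebpa (77.2 to 34.8 CPM) and Gfi1 (60.5 to 23.4 CPM), both regulators of early granulocyte commitment. Klf4, a factor of monocytes and macrophages, was near 0, with means of 0.0138 CPM at day 2 and 0.0154 CPM at day 5.

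Monocyte and macrophage genes rose in 17 of 21 cases and fell in 0, with a median of 4.08; a further 6 of the 27 members were too low to test, among them C1qa, C1qb, C1qc and Marco. Lyz2, lysozyme of phagocytes, stood at 109.6, 83.2 and 69.0 CPM at day 2 and 18802, 13652 and 17392 CPM at day 5 (log2 7.57 ± 0.28). Trem2, a lipid-sensing receptor of macrophages, stood at 0.827, 0.862 and 1.18 CPM at day 2 and 236, 189 and 241 CPM at day 5 (log2 7.89 ± 0.30). Msr1, a scavenger receptor, stood at 1.24, 0.800 and 1.10 CPM at day 2 and 281, 259.6 and 318 CPM at day 5 (log2 8.06 ± 0.23). No day 2 library reached the lowest day 5 library in these genes. Gpnmb rose from 1.17 ± 1.21 to 773 ± 178 CPM and Mpeg1, perforin-2, from 86.7 ± 20.8 to 1465 ± 135 CPM. Ccr2, the receptor that brings monocytes into tissue, stood at 1108, 1299 and 1563 CPM in untreated cells, at 78.2, 107 and 205 CPM at day 2 and at 1780.5, 1721 and 2032 CPM at day 5, so day 2 was the low point of the 3. The late change of Ccr2 was 3.83 ± 0.30 (log2), larger than in the wild-type line by 3.54 ± 0.39. Over the list, 18 of the 21 genes rose and 1 fell in the wild-type line, with a median of 5.19. The difference between the lines was positive and passed for 8 genes and negative for 4, against 16.3% and 10.6% of all genes. The 4 became 7 with DESeq2 and 8 with limma. It became 2 without wild-type day 5 replicate 1 or without P248L day 5 replicate 2. The list's summed level at day 5 was 20189 to 26310 CPM in the P248L line and 53157, 50827 and 44516 CPM in the wild-type line.

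Lysosome genes rose in 26 of 29 cases and fell in 1, with a median of 2.20 and a summed level of 3045 to 3602 CPM at day 2 and 26134 to 33338 CPM at day 5. Psap encodes prosaposin, the precursor of the activators of sphingolipid breakdown. Psap stood at 210.0, 178 and 158 CPM at day 2 and 15484, 11288 and 14455 CPM at day 5 (log2 6.24 ± 0.21). Ctsb, the protease cathepsin B, stood at 139.7, 124 and 104 CPM at day 2 and 1835, 1584 and 1884 CPM at day 5 (log2 3.85 ± 0.16). Ctsl, cathepsin L, stood at 6.24, 4.68 and 6.84 CPM at day 2 and 286, 255 and 293 CPM at day 5 (log2 5.55 ± 0.17). Every day 5 value was above every day 2 value. The 1 member that fell was Atp6v1h, a subunit of the proton pump, from 119 to 85.0 CPM. The difference from the wild-type line was negative and passed for 16 of the 29 genes and positive for 2, against 10.6% negative and 16.3% positive differences among all genes; for Ctsb the difference was -1.53 ± 0.20.

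Lipid-handling genes rose in 16 of 17 cases. Plin2, which coats lipid droplets, stood at 68.5, 66.3 and 50.9 CPM at day 2 and 1378, 1256 and 1428 CPM at day 5 (log2 4.45 ± 0.16). Abcg1, a cholesterol exporter induced by the sterol sensor LXR, stood at 30.6, 29.5 and 29.1 CPM at day 2 and 869, 616 and 682 CPM at day 5 (log2 4.60 ± 0.14). Pparg, a nuclear receptor for fatty acids, rose from 1.12 ± 0.248 to 82.0 ± 5.57 CPM. The list's median was 4.31, or 3.53 with Cd36, which had 0 reads at day 2, set at its bound. Among iron genes 7 of 10 rose and 2 fell: Fth1, the ferritin heavy chain, stood at 868, 596 and 569 CPM at day 2 and 6019.6, 5056 and 6139 CPM at day 5 (log2 3.08 ± 0.26), Hmox1, which breaks down heme, rose from 14.8 ± 6.43 to 129 ± 17.8 CPM, and Tfrc, the transferrin receptor, stood at 788, 1183 and 1197 CPM at day 2 and 126, 166 and 124 CPM at day 5 and fell (log2 -2.93 ± 0.23).

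Of the phagocyte oxidase and Fc receptor genes 12 of 12 rose, with a median of 1.69. Cybb, the catalytic subunit of the oxidase, stood at 0, 0.0616 and 0.0735 CPM at day 2 and 10.9, 9.36 and 11.0 CPM at day 5; with 2 reads over the day 2 group, its ratio with a 95% counting interval was 285 (78.4 to 2357). Fcgr3, a low-affinity Fc receptor, rose from 101 ± 2.61 to 664 ± 61.2 CPM. Pattern recognition receptors rose in 18 of 21 cases and fell in 0, with a median of 3.01. Tlr7 and Tlr13, endosomal sensors of RNA, went from 1.82 ± 0.225 to 166 ± 8.97 CPM and from 2.35 ± 0.652 to 313 ± 26.5 CPM. Clec4n, the fungal receptor dectin-2, stood at 2.27, 2.65 and 3.24 CPM at day 2 and 728, 615 and 784 CPM at day 5 (log2 8.04 ± 0.29).

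Chemoattractant receptors rose in 13 of 14 cases, with a median of 3.50. Fpr1, the receptor for bacterial formyl peptides, had 0 reads at day 2 and 129, 99.6 and 105 CPM at day 5, at least 2048-fold higher against a floor of 3 reads over the group. Fpr2 stood at 0.413, 0.308 and 0.441 CPM at day 2 and 282, 275 and 298 CPM at day 5 (log2 9.50 ± 0.27). C5ar1, the receptor for complement C5a, stood at 0.786, 1.23 and 1.18 CPM at day 2 and 221, 165 and 182 CPM at day 5 (log2 7.51 ± 0.23). The 3 receptors were thus near or at 0 at day 2 and high in all 3 libraries at day 5. Cxcr2, which draws neutrophils to chemokines, rose from 29.8 ± 6.37 to 124 ± 19.8 CPM, and Ltb4r1, a leukotriene receptor, from 15.1 ± 5.08 to 145 ± 9.83 CPM. The difference from the wild-type line was positive and passed for 10 of 14 receptors and negative for 1; the difference was 6.00 ± 0.27 for C5ar1.

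Chemokine and inflammatory genes rose in 14 of 17 cases and fell in 0, with a median of 4.76. Ccl6, a chemokine of myeloid cells, stood at 28.4, 17.4 and 18.3 CPM at day 2 and 6099, 5787 and 7655 CPM at day 5 (log2 8.25 ± 0.44). Il1rn, the antagonist of the interleukin-1 receptor, stood at 1.03, 1.79 and 2.13 CPM at day 2 and 249, 206 and 219 CPM at day 5 (log2 7.14 ± 0.27). Ccl4, a chemokine for monocytes, stood at 3.47, 2.28 and 2.65 CPM at day 2 and 90.4, 88.6 and 138 CPM at day 5 (log2 5.21 ± 0.32). Cxcl2, which attracts neutrophils, rose from 0.210 ± 0.122 to 129.9 ± 71.5 CPM, while Il6 (1.18 and 1.83 CPM) and Ptgs2 (7.70 and 10.1 CPM) did not pass. The difference from the wild-type line was positive and passed for 10 of the 17 genes.

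Interferon-stimulated genes rose late in the P248L line, by less than in the wild-type line. Type I interferons signal through a complex that holds STAT2 and IRF9 and binds the interferon-stimulated response element, 2 GAAA blocks with 2 bases of any kind between them. In RefSeq promoters of build GRCm38.p6, which run from 250 bases before to 50 after a gene's start, that pattern on either strand was found in 15 of 26 promoters of type I interferon-stimulated genes (57.7%; 23 of 32 genes had an entry), in 9 of 10 promoters of the interferon-inducible GTPases of the GBP and IRG families (9 of 14 genes), and in 3.44% of all 32851 promoters. The STAT site, TTC and GAA with 3 bases between them, which can overlap it, was in 6 of the 10 GTPase promoters and in 8.30% of all. The 250 bases before the start of 4 genes whose values follow are shown 5′ to 3′ on the gene's strand, with the element in capitals; TTTC blocks are the element on the opposite strand, and Ifit3 holds it in 2 places. They lie at chr11:82951852-82952101 (plus strand), chr5:120777660-120777909 (minus), chr3:142620413-142620662 (plus) and chr19:34583279-34583528 (plus). A match is a description of the sequence and not a measured site.
Slfn5: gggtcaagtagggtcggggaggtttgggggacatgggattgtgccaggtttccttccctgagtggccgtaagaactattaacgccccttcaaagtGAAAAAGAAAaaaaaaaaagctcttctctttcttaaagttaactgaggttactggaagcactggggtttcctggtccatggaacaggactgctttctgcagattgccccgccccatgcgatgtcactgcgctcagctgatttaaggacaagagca
Oas3: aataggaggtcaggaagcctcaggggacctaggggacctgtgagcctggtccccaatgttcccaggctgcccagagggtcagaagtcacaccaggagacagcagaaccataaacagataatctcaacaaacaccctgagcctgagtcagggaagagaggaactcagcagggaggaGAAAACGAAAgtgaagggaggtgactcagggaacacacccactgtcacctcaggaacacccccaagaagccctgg
Gbp2: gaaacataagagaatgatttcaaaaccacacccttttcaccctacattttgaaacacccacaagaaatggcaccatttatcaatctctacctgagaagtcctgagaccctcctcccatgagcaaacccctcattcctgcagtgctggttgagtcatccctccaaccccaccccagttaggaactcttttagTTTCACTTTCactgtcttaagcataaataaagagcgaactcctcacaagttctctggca
Ifit3: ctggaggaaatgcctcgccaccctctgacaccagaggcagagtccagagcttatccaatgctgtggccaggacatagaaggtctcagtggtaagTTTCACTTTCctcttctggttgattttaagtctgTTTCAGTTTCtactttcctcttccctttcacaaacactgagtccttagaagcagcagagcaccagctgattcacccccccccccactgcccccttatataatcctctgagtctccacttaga

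Of 32 type I interferon-stimulated genes tested, 29 rose and 1 fell in the P248L line, with a median of 3.17. The median was 3.57 with the 1 gene that lacked reads on a day left out. Slfn5, a nuclear protein of the Schlafen family, stood at 8.48, 8.56 and 14.4 CPM at day 2 and 269.9, 219 and 229 CPM at day 5 (log2 4.53 ± 0.20). Oas3, a synthetase that activates RNase L, stood at 0.372, 0.677 and 0.588 CPM at day 2 and 22.9, 23.2 and 24.5 CPM at day 5 (log2 5.47 ± 0.25). Zbp1, a sensor of nucleic acids, stood at 0.289, 0.185 and 0.294 CPM at day 2 and 13.9, 10.7 and 13.9 CPM at day 5 (log2 5.60 ± 0.23). All day 5 libraries lay above all day 2 libraries in these genes. Irf9 rose from 6.34 ± 0.449 to 41.2 ± 3.69 CPM and Irf7, the factor that amplifies interferon production, from 0.384 ± 0.270 to 16.3 ± 2.29 CPM. Ifit2, which binds viral RNA, was the 1 that fell, from 12.4 ± 4.55 to 7.36 ± 0.839 CPM. Ifit3 stood at 0.207, 0.123 and 0.147 CPM at day 2 and 0.695, 0.230 and 0.439 CPM at day 5; it passed with an adjusted p of 0.0138 in edgeR and not without day 2 replicate 2 (0.0562) or day 5 replicate 1 (0.156).

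At day 5, 16 of the 32 genes reached a mean of 10 CPM in the P248L line and 5 reached 100 CPM, against 30 and 25 in the wild-type line. The wild-type median late change was 6.97, and the difference between the lines was negative and passed for 28 of the 32 genes and positive for 0, against 10.6% negative among all genes. Oasl2 stood at 0.207, 0.0616 and 0 CPM at day 2 and 1.57, 1.07 and 1.51 CPM at day 5 in the P248L line and at 0.0436, 0 and 0 CPM at day 2 and 196, 241 and 187 CPM at day 5 in the wild-type line, a difference of -9.53 ± 1.46 (log2). Slfn5 of the wild-type line reached 1969 ± 133 CPM at day 5, a difference of -2.42 ± 0.25. The ligands themselves were hardly read: 8 of 9 interferon genes had 0 reads at both days in the P248L line, with a summed level of at most 0.126 CPM in any of the 6 libraries. The wild-type line's summed level of these genes was 0 in all 3 day 2 libraries and 0.487, 0.398 and 0.884 CPM at day 5, and Ifnb1, interferon beta, had 0 reads at day 2 and 20 over the day 5 group, at least 8.15-fold higher against a floor of 3 reads over the group. None of the 9 passed the filter on low counts, so none was tested.

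Of the interferon-inducible GTPases 9 of 12 rose and 0 fell, with a median of 2.44. When the fit held only the 6 P248L libraries, 8 could be tested and 5 rose. Gbp2 stood at 0.207, 0.123 and 0.0735 CPM at day 2 and 8.15, 7.36 and 7.84 CPM at day 5 in the P248L line (log2 5.67 ± 0.27) and at 0.349, 0.287 and 0.470 CPM at day 2 and 64.3, 76.6 and 69.4 CPM at day 5 in the wild-type line. Gbp7, with 69.4 ± 26.2 CPM at day 2, rose to 133 ± 4.09 CPM. The difference was negative and passed for 9 of 12, and for 5 without P248L day 2 replicate 1; for Gbp2 it then did not pass (log2 -1.40, adjusted p 0.333 in edgeR).

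**Figure D3:**
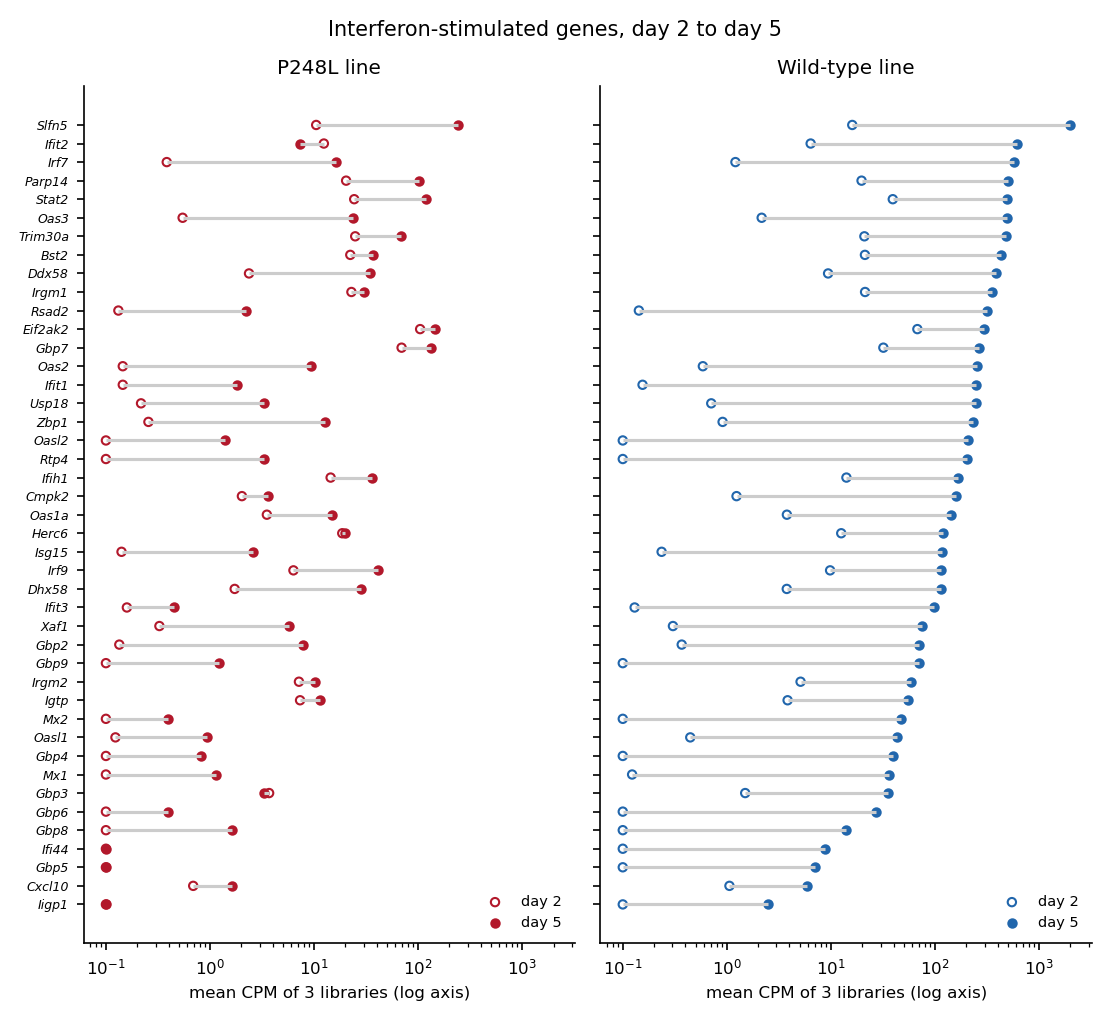
Mean CPM of 3 libraries (log axis) at day 2 (open) and day 5 (filled) of 31 of the 32 type I interferon-stimulated genes and 12 GBP and IRG genes, in the P248L line (left) and the wild-type line (right), ordered by the wild-type day 5 mean; means under 0.1 CPM are drawn at 0.1. The 31 type I genes drawn all have a lower day 5 mean in the P248L line, where Slfn5 is highest at 239 CPM.

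Antigen presentation genes were mixed. Of 16 MHC class I genes, 8 rose and 5 fell, with a median of 0.47 that turned to -0.02 when the fit held only the 6 libraries or when the length and GC trend was removed, where 8 fell. H2-D1, a class I heavy chain, stood at 72.7, 61.9 and 47.0 CPM at day 2 and 805, 698 and 806 CPM at day 5 (log2 3.67 ± 0.19), and H2-K1, another, rose from 25.6 ± 4.68 to 142 ± 11.0 CPM; class I genes are near-identical copies, so their reads are uncertain. The chaperone Calr fell from 5009.6 ± 339.5 to 1219 ± 84.7 CPM and the immunoproteasome subunit Psmb8 from 204 ± 25.9 to 135 ± 19.3 CPM. The difference from the wild-type line was negative and passed for 11 of 16. Of 12 dendritic cell and class II genes tested, 6 rose and 1 fell. Cd74, the invariant chain of class II, stood at 1.86, 2.03 and 1.91 CPM at day 2 and 288, 249.7 and 373 CPM at day 5 (log2 7.29 ± 0.21), whereas the class II chains H2-Aa and H2-Eb1 had means of at most 0.0727 CPM at either day.

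Genes of cell division fell together. Of 29 genes of DNA replication and the G1/S transition 28 fell and 0 rose, with a median of -1.87, and of 21 mitotic genes 19 fell and 0 rose, with a median of -1.42. Mcm3, a subunit of the replicative helicase, stood at 447, 430.3 and 399 CPM at day 2 and 83.8, 99.6 and 83.5 CPM at day 5 (log2 -2.26 ± 0.11). Ccnb1, cyclin B1, stood at 144, 169.9 and 181 CPM at day 2 and 44.4, 55.0 and 57.1 CPM at day 5 (log2 -1.66 ± 0.14). Cdc20, an activator of the anaphase-promoting complex, stood at 174, 151 and 102 CPM at day 2 and 33.9, 43.6 and 35.3 CPM at day 5 (log2 -1.92 ± 0.19). Every day 5 value was below every day 2 value. Mki67, with 641, 935 and 1150.5 CPM at day 2 and 608, 658 and 408 CPM at day 5, did not pass. The difference from the wild-type line, where mitotic genes had a median of -2.56, was positive and passed for 20 of 21; for Cdc20 it was 1.49 ± 0.26. Inhibitors of cyclin-dependent kinases and RB family genes rose in 8 of 10 cases: Cdkn1a, p21, stood at 206, 156 and 139.9 CPM at day 2 and 651, 421 and 611 CPM at day 5 (log2 1.75 ± 0.21), and Cdkn1b, p27, rose from 31.0 ± 7.54 to 136 ± 6.21 CPM.

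Ribosome assembly genes fell in 24 of 24 cases, with a median of -2.72, the lowest of the lists. Ncl, nucleolin, stood at 5785, 6592 and 10512 CPM at day 2 and 1046, 1118 and 1095 CPM at day 5 (log2 -2.81 ± 0.18). Nolc1, a nucleolar phosphoprotein, stood at 624, 538 and 517 CPM at day 2 and 62.0, 63.3 and 58.8 CPM at day 5 (log2 -3.19 ± 0.14). Npm1, nucleophosmin, fell from 5364 ± 1560.3 to 1009 ± 108 CPM. The E-box CACGTG, the sequence bound by MYC, was in 5 of 21 promoters of these genes, in 10.1% of promoters of all tested genes and in 7.15% of all promoters. It was also in 7 of 27 promoters of the lysosome genes, which mostly rose, and in 1 of 18 of the late neutrophil genes. Any part of MYC was not tested. The proteins of the ribosome itself behaved otherwise: of 78 cytosolic ribosomal protein genes 12 fell and 1 rose, with a median of -0.10; these genes have many near-identical copies, so their reads are uncertain. That count rose to 42 with the length and GC trend removed, where the list's median was -0.43 against -0.21 for all genes, and to 19 with no scaling beyond library size. In the wild-type line the median was -0.89 and 64 fell. The difference between the lines was positive and passed for 22 of the 78 and negative for 0, against 16.3% and 10.6% of all genes. That 22 became 5 without P248L day 5 replicate 3. It became 43 with the replicate number as a block and only the libraries compared.

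Of 77 oxidative phosphorylation genes 37 fell and 4 rose, with a median of -0.55; with the length and GC trend removed 59 fell. Atp5b, a catalytic subunit of ATP synthase, stood at 1800.1, 1615 and 1428 CPM at day 2 and 673, 739 and 771 CPM at day 5 (log2 -1.15 ± 0.12), and Ndufs1, of complex I, fell from 281 ± 39.9 to 139 ± 2.51 CPM. Glycolysis and hypoxia-responsive genes, by contrast, rose in 18 of 21 cases and fell in 1, with a median of 1.08. Vegfa, a vascular growth factor induced by low oxygen, stood at 18.4, 21.2 and 23.7 CPM at day 2 and 498, 369.6 and 509 CPM at day 5 (log2 4.44 ± 0.23). Ndrg1, which low oxygen also induces, stood at 12.8, 14.6 and 16.7 CPM at day 2 and 579.7, 361 and 583 CPM at day 5 (log2 5.12 ± 0.22). Hk1, a hexokinase, stood at 122, 104 and 95.8 CPM at day 2 and 321, 261 and 284 CPM at day 5 (log2 1.43 ± 0.15). In all 3 genes the days did not overlap. Egln3, an oxygen-dependent prolyl hydroxylase, rose from 137 ± 9.30 to 638 ± 107 CPM, the glucose transporter Slc2a1 from 78.9 ± 9.93 to 173 ± 40.0 CPM and the enzyme Pgk1 from 303 ± 25.6 to 696 ± 119 CPM. The 1 that fell was Pfkfb3, a regulator of glycolytic flux, from 101 ± 3.90 to 50.5 ± 6.94 CPM, and Ldha, lactate dehydrogenase, did not pass, with 1415, 1319.6 and 1223 CPM at day 2 and 1177, 1282 and 1504 CPM at day 5.

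In the wild-type line 4 of these 21 genes rose and 10 fell, with a median of -0.44, and the difference was positive and passed for 16 and negative for 0. Vegfa of the wild-type line stood at 30.7, 25.5 and 30.6 CPM at day 2 and 25.7, 31.0 and 46.6 CPM at day 5, a difference of 4.19 ± 0.29 (log2), and for Egln3 the difference was 4.08 ± 0.49. The scaling moved the wild-type median over all genes from 0.02 to -0.25 without scaling beyond library size, and to 0.12 with DESeq2's size factors.

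Cholesterol synthesis genes rose in 14 of 22 cases and fell in 1 in the P248L line, with a median of 0.68, while 0 rose and 14 fell in the wild-type line, with a median of -0.76. The enzymes of this pathway are switched on together by SREBP2 when cell cholesterol is low. Fdft1, squalene synthase, stood at 41.5, 36.8 and 36.0 CPM at day 2 and 98.1, 82.8 and 86.3 CPM at day 5 (log2 1.22 ± 0.13). Insig1, a sterol-sensing brake on SREBP2, stood at 52.5, 59.5 and 50.2 CPM at day 2 and 129, 137 and 143 CPM at day 5 (log2 1.33 ± 0.17). The day 5 libraries were above the day 2 libraries in both. The difference between the lines was positive and passed for 20 of the 22; for Fdft1 it was 1.85 ± 0.19 and for Fdps, farnesyl diphosphate synthase, 2.07 ± 0.26. Genes of the amino acid response led by ATF4 and of protein stress split, with 10 of 22 rising and 7 falling. Atf3 stood at 0.992, 1.17 and 1.99 CPM at day 2 and 81.8, 63.2 and 91.2 CPM at day 5 (log2 5.88 ± 0.33), and Trib3, a pseudokinase induced by ATF4, rose from 5.76 ± 0.944 to 43.4 ± 8.55 CPM, whereas the serine synthesis enzymes Psat1 (449.7 to 191 CPM), Phgdh (94.9 to 37.7) and Psph (68.7 to 35.9) fell.

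**Figure D4:**
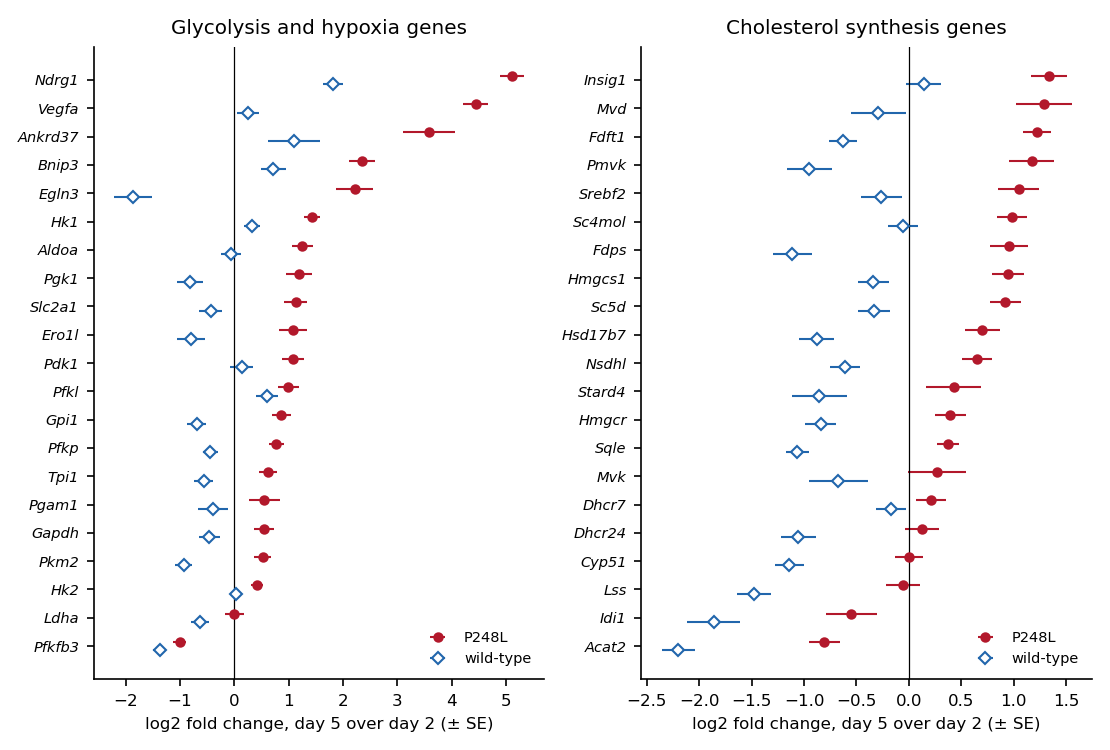
Log2 fold change from day 2 to day 5 with its standard error (x axis) of 21 glycolysis and hypoxia genes (left) and of 21 of the 22 cholesterol synthesis genes (right) in the P248L line (red circles) and the wild-type line (open blue diamonds). Medians over the whole lists are 1.08 and 0.68 in the P248L line and -0.44 and -0.76 in the wild-type line.

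Apoptosis and p53 target genes rose in 10 of 17 cases and fell in 2. Trp53inp1, a p53 target, stood at 11.0, 16.1 and 18.7 CPM at day 2 and 214, 215 and 200.1 CPM at day 5 (log2 3.79 ± 0.22), and Bcl2l11, the death-promoting protein BIM, rose from 15.2 ± 0.181 to 96.0 ± 12.4 CPM. Fas, a death receptor, rose from 0.808 ± 0.154 to 12.8 ± 2.26 CPM and the survival gene Bcl2 fell from 66.8 ± 11.9 to 24.7 ± 2.54 CPM. Of 47 clustered histone genes 26 fell and 6 rose. The summed level of all 68 members was still higher at day 5, at 120 to 201 CPM against 65.1 to 83.2 CPM at day 2. Hist1h1c, a linker histone, rose from 4.64 ± 1.22 to 77.7 ± 33.7 CPM, and the replication-dependent Hist1h2bl fell from 0.896 to 0.0928 CPM; most histone genes are low here and are near-identical copies, so their values are uncertain.

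The largest single changes outside those lists were chosen by fold among genes at 10 CPM or more without overlap between the days' libraries. Dennd2a, which regulates RAB GTPases, had 0 reads at day 2 and 53.8, 36.2 and 44.1 CPM at day 5, at least 832-fold higher. Eno2 (enolase 2), Tff1 (trefoil factor 1) and Bcar3 also had 0 reads at day 2 and means of 21.7, 18.3 and 12.7 CPM at day 5, at least 407-, 320.2- and 246-fold higher. Sirpb1b had 0 reads at day 2 as well and was at least 322-fold higher. Zfp36l1, an RNA-binding protein that speeds mRNA decay, rose from 1 read over the day 2 group to 33.4, 26.3 and 33.3 CPM, and Cyp4a12a, a fatty acid hydroxylase, from 2 reads to 76.4, 56.2 and 61.4 CPM; Cyp4a12a and Sirpb1b have close copies in the genome, so their reads are uncertain. The steepest falls were smaller in size. F12, coagulation factor XII, stood at 13.8, 5.23 and 23.2 CPM at day 2 and 0.370, 0.0767 and 0.628 CPM at day 5 (log2 -5.21 ± 0.71). Ccnb1ip1 stood at 70.9, 70.6 and 74.0 CPM at day 2 and 2.27, 2.92 and 1.32 CPM at day 5 (log2 -5.06 ± 0.26). Col4a2, a collagen of basement membranes, stood at 27.3, 21.9 and 16.1 CPM at day 2 and 1.16, 0.844 and 0.377 CPM at day 5 (log2 -4.73 ± 0.33). That every day 5 library was lower in these genes was a condition of their choice. Others were Rangrf, Vat1l, Tle1, Bex6, Epha7, Btla, Mns1, Zbtb16, Nefh and Lin28b, with changes from -5.05 to -3.70. Lin28b, an RNA-binding protein of fetal blood cells, went from 86.1 ± 20.2 to 6.65 ± 1.64 CPM and Zbtb16, a zinc finger factor, from 11.7 ± 1.45 to 0.829 ± 0.232 CPM.

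By reads, the library itself turned over. The 8 genes that drew the most reads at day 5 were Thbs1, S100a9, Lyz2, S100a8, Psap, Eef1a1, Actb and Ccl6, and at day 2 they were Rn45s, Hsp90ab1, Ncl, Mpo, Eef1a1, Npm1, Calr and Pabpc1. Thbs1 encodes thrombospondin 1, a secreted glycoprotein. It stood at 195, 243 and 256 CPM in untreated cells and at 1147, 1250.3 and 1241 CPM at day 2 and 24263, 25722 and 22976 CPM at day 5 (log2 4.33 ± 0.19). In the wild-type line Thbs1 stood at 7143, 6075 and 6004 CPM at day 2 and 4327, 4881 and 3343 CPM at day 5 and fell, a difference of 4.94 ± 0.25 (log2). The chaperone Hsp90ab1 fell from 7666 ± 602 to 2432 ± 95.9 CPM, and Actb rose from 2958 ± 515 to 6605 ± 607 CPM. Rn45s rested on 1 library: it stood at 1233, 1499 and 37741 CPM at day 2 and 1148, 2347 and 1097 CPM at day 5, and its fall (log2 -3.14) turned to 0.16 without day 2 replicate 3, with an adjusted p of 0.749 in edgeR.

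Compared gene by gene, the late changes of the lines went mostly the same way, and the 2 comparisons share no library. In the wild-type line 8439 genes (70.7%) passed, 6549 in both lines and in the same direction; these were 75.8% of the P248L rises and 78.1% of the wild-type rises, and 80.8% and 77.1% of the falls. A further 327 passed in opposite directions, 223 of them higher in the P248L line. The late change itself differed between the lines for 3208 genes (26.9%), with 1947 differences positive and 1261 negative; the positive share was 60.7%, 50.2% with DESeq2 and 72.5% without scaling beyond library size. Of the P248L rises, 1303 were larger and 406 smaller than in the wild-type line by that test, and of its falls 571 were larger and 371 smaller. Across the 11942 genes Pearson's r of the log2 changes was 0.72, a description over genes that are not independent and were read in shared libraries.

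**Figure D5:**
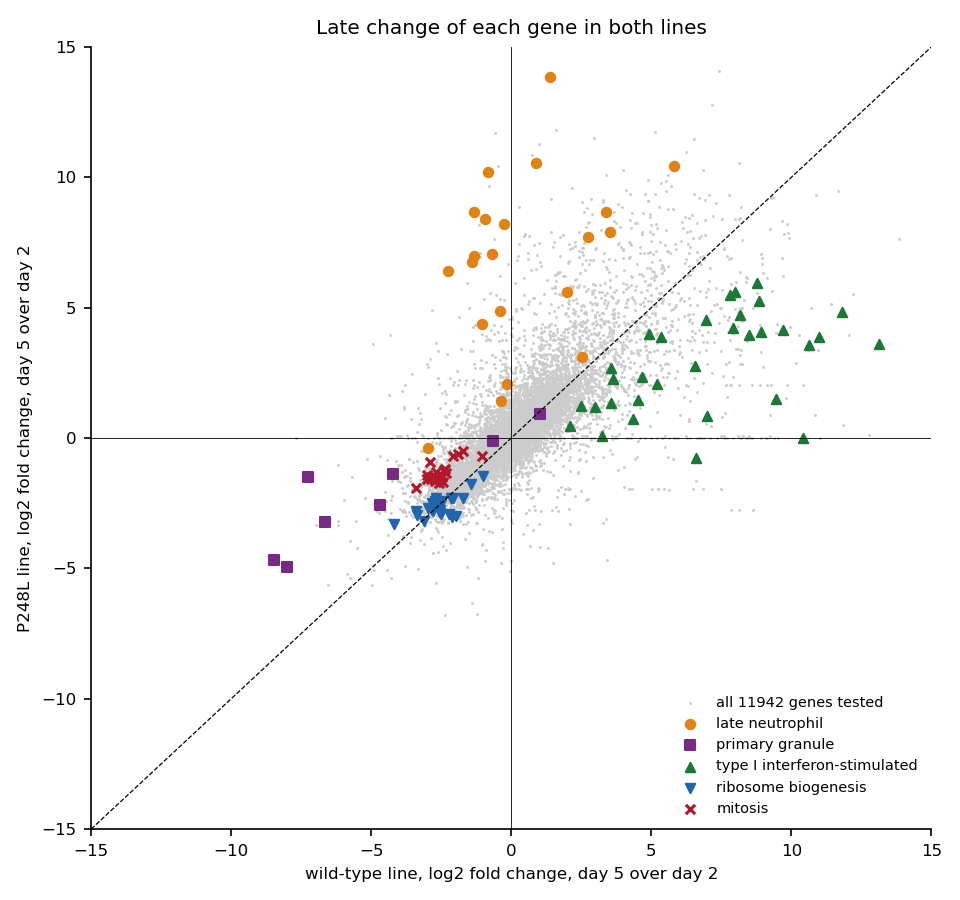
Log2 fold change from day 2 to day 5 of each of 11942 genes (grey) in the wild-type line (x axis) and the P248L line (y axis), with 5 gene lists marked and the line of equal change dashed. All 21 late neutrophil genes lie above that line, Csf3r closest to it, and all 32 type I interferon-stimulated genes below it.

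The widest differences by the rule of fold were, on the positive side, Retnlg, Stfa2l1, Ngp, Stfa2, Stfa3, Itgb2l, Ltf and S100a9, all of them members of the neutrophil list or stefins. On the negative side were Prickle2, Cd302, Ddx60, Oasl2, Gpr137b, Pkdcc, Gbp6 and Ifit3. The latter genes were low in the P248L line at both days: Ddx60, an interferon-induced helicase, stood at 0.0413, 0 and 0 CPM at day 2 and 0.0463, 0 and 0.0628 CPM at day 5, and in the wild-type line at 0, 0.115 and 0.0522 CPM at day 2 and 88.6, 126 and 102 CPM at day 5. Gpr137b, a lysosomal membrane protein, stood at 0.0413, 0 and 0 CPM at day 2 and 0.0926, 0 and 0 CPM at day 5, and in the wild-type line at 0.174, 0.115 and 0.157 CPM at day 2 and 105, 90.3 and 92.6 CPM at day 5. Cd302, a C-type lectin, had 0 reads at day 5 in the P248L line and a mean of 30.6 CPM in the wild-type line. Without P248L day 2 replicate 1 the differences of Prickle2, Cd302, Ddx60, Gpr137b, Pkdcc and Gbp6 did not pass, at log2 -8.13 to -6.15 with an adjusted p of at least 0.990 in edgeR each; Oasl2 and Ifit3 still passed, Oasl2 only narrowly. With reads of both strands counted, Cd302 rose in the P248L line (log2 1.96, adjusted p 0.0308 in edgeR).

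Markers of other blood and liver cells were also measured, and their part in the results was not tested. Of 12 basophil and mast cell genes tested 6 fell and 3 rose, with summed levels of 492 to 571 CPM at day 2 and 266 to 331 CPM at day 5; the list shares Kit and Gata2 with the progenitor genes, and Fcer1a had 0 reads. Mcpt8, a basophil protease, fell from 8.27 to 2.19 CPM. Cpa3, a mast cell protease, stood at 252, 255 and 255 CPM at day 2 and 38.3, 47.9 and 27.1 CPM at day 5 and fell in the P248L line, and in the wild-type line it stood at 914, 1099 and 786 CPM at day 2 and 2996, 2634 and 2026 CPM at day 5 and rose, a difference of -4.20 ± 0.28. Eosinophil genes summed to 17.8 to 25.1 CPM at day 2 and 35.6 to 44.0 CPM at day 5, with 4 of 5 tested members higher and 1 lower; Epx, eosinophil peroxidase, reached 4.01 CPM. Megakaryocyte genes summed to 39.3 to 53.1 CPM at day 2 and 147 to 157 CPM at day 5, with 4 of 8 higher and 2 lower; Vwf, von Willebrand factor, rose from 0.303 ± 0.334 to 74.1 ± 16.2 CPM. Erythroid genes summed to at most 3.10 CPM, and 8 of 11 were too low to test. Lymphoid genes other than Il7r were near 0, with 11 of 14 too low to test. Hepatocyte, stromal and endothelial genes summed to at most 2.13 CPM at either day, and 10 of 13 were too low to test; Alb and Ttr had 0 reads. Markers of both neutrophils and macrophages were high at day 5, and these bulk libraries do not show whether 1 cell carries both.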

How the data were processed

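RNA-seq counts per gene were deposited by the authors for each of 18 libraries; reads were aligned with STAR to mm10, per the submitters' processing notes, with annotation and counting options not given in the sources used here. Each deposited table holds counts for both strands together and for each strand apart; the strand that held the reads was used (the other held 1.17% to 2.54%), with 1 alternative on both strands. Rows that name no gene were left out of library sizes. They held 27.9% to 38.1% of all reads counted. Of 23329 genes, 11942 passed edgeR's filter (minimum count 10).

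TMM factors and edgeR 4.0.16's quasi-likelihood F test (R 4.3.3) were fitted to all 18 libraries with 1 mean per group, and contrasts gave day 5 over day 2 in each line and their difference. Standard errors are the log2 change over the square root of F; adjusted p (Benjamini-Hochberg, over all tested genes) under 0.05 was called. The common biological coefficient of variation was 0.17. Scripts were tested on simulated counts. Alternatives used DESeq2 1.42.0, limma 3.58.1 and the settings named in the closing section.

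The comparison, the gene lists and the tests were chosen with earlier results of these data known. Named genes were the 15 largest rises and falls, the 8 with most reads at each day and the 8 largest differences of each sign. The largest rises and falls were taken only from called genes at 10 CPM or more without overlap of libraries between the days. Also named were up to 4 of smallest adjusted p in those of the 37 lists that had 3 or more called members. The receptors and interferon genes were named as well, and other genes named were picked from the lists after their values were seen. Some genes of the lists are not reported here by name; the counts and medians of the lists include them. Intervals and floors cover counting error only. Promoters are from RefSeq (GRCm38.p6). Figures used matplotlib 3.10.9.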

Additional observations from a re-analysis of the deposited data

Results flagged for a closer look

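The late change differed between the lines by its own test for 3208 genes. Among the genes named by the rule of fold, the difference (P248L minus wild-type, log2) was 12.47 for Retnlg, 12.26 for Stfa2l1, 11.01 for Ngp, 10.29 for Stfa2, 10.21 for Stfa3, 10.00 for Itgb2l, 9.64 for Ltf and 9.32 for S100a9. It was -11.37 for Prickle2, -10.91 for Cd302, -9.97 for Ddx60, -9.53 for Oasl2, -8.37 for Gpr137b, -8.19 for Pkdcc, -8.08 for Gbp6 and -7.93 for Ifit3. For genes with no reads or few reads in a group these fitted values depend on the prior count and are not bounds.

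A further 7 named genes passed in opposite directions in the lines and differed by the test of the difference. Thbs1 (thrombospondin 1) differed by 4.94, Fdft1 (squalene synthase) by 1.85, Trib3 by 3.79, Cth (cystathionine gamma-lyase) by 8.52 and Ppbp (a platelet chemokine) by 6.53, all higher late in the P248L line and lower in the wild-type line. Cpa3 differed by -4.20 and Kit by -2.86, both lower late in the P248L line and higher in the wild-type line. The largest adjusted p of the difference in edgeR among these 7 was 2.57e-05.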

How the results depend on the processing

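The count of genes changed late in the P248L line was 8382 and lay between 7575 and 9153 over the other tests, scalings, filters, strands and the length and GC trend; without 1 library it was 7838 to 8328. The difference between the lines gave 2692 to 3515 calls without 1 library, 3668 with DESeq2, 4735 with the trend removed and 2111 at an adjusted p of 0.01. Asking for at least 2-fold as well left 5401 genes in the P248L line, 5316 in the wild-type line and 1998 differences. No scaling beyond library size and leaving out Rn45s were added after seeing the data; the latter gave 8396 calls. With the replicate number as a block, 8442 genes passed in the P248L line, 8483 in the wild-type line and 3315 differences. After each group's mean was taken off, same-numbered P248L libraries correlated at 0.13, 0.11 and -0.03, and those of unlike number at -0.21 to 0.12. Day 2 replicates 1 and 2 correlated best with the same number at day 5, and day 2 replicate 3 with day 5 replicate 2. With 3 libraries a group, these values cannot show whether the numbers pair the samples. Of 191 named genes, 7 lost their call or changed sign in the P248L day 5 versus day 2 test under 1 or more of 19 settings other than the stricter thresholds: Il3ra, Ifit3, Eef1a1, Afp, Kdr, Rn45s and Cd302. For the difference between the lines, 125 of 194 named genes passed, and 24 of them lost that call under 1 or more of 25 settings, 19 without P248L day 2 replicate 1 and up to 12 without any other library; 0 changed sign. Cd302 turned to 1.96 with both strands, and Rn45s ranged from -3.74 to 0.16 without 1 library, the latter without P248L day 2 replicate 3; the cause was not tested. With the fit limited to the 6 libraries, fewer genes were tested, and 17 histone genes fell in place of 26, 2 eosinophil genes rose in place of 4. No list count of 4 or more in the P248L test moved by over 1.5 times without 1 library. List counts of differences between the lines were less stable. Without P248L day 2 replicate 1, 12 of 72 moved by over 1.5 times or to or from 0. With the length and GC trend removed, 13 of 72 list counts moved by over 1.5 times or to or from 0. Of the 36 list medians, 26 then changed sign or moved beyond a small set margin, and up to 13 did so without 1 library. Depth limits genes near 0, where 3 reads over a group are the floor.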
